A study of Mus musculus with 14 samples.

Results

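NF-kB is a family of transcription factors built from 5 subunits, and its own target genes include proteins that switch it off. The transcripts of these 5 subunits (Rel, Rela, Relb, Nfkb1 and Nfkb2) were followed in mouse haematopoietic stem cells (HSCs). So were those of 5 genes grouped here as feedback inhibitors (Nfkbia, Nfkbib, Nfkbie, Tnfaip3 and Birc3), though their roles are not all alike. The 10 genes were named by their role in the pathway and matched by gene label in every file. Each matched a single label, so no choice among copies was needed, and they are 10 of 48714 gene labels joined across the files. All 10 averaged at least 1 RPKM, which put them among the 9921 tested genes. RPKM divides a gene's reads by the length of its model and by the size of the library, so levels can be set side by side between genes.

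HSCs of the strain C57BL/6 were taken from bone marrow and sorted by their calcium level into a [Ca2+]high population (calcium-high) and a [Ca2+]low population (calcium-low). Each group has 7 libraries numbered 1 to 7, made from the total RNA of 100 cells each. Both groups are cells of the same strain. No treatment, genotype, age or sort gate beyond the HSC name is given in the sources used here. Nor do they say whether libraries came from separate animals. The p-values therefore measure only the spread between these libraries, which may be technical. The series concerns the dormancy of HSCs and its regulation through calcium in the cytoplasm.

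Libraries of replicates 1 to 3 held from 3575219 to 7387721 reads in the listed genes, and those of replicates 4 to 7 from 8280683 to 10296224. Depth did not differ detectably between the groups (exact two-sided permutation p = 0.83, n = 7 each), and neither did the number of genes above 0 (14653 to 15405 in calcium-high, 14491 to 15142 in calcium-low, exact permutation p = 0.0857). The HSC markers fixed for the check were above 0 in both groups, 11 of 11, with Kit, the stem cell factor receptor, at 59.3 to 76.1 RPKM. Cd34 and Flt3 were listed among them as low in HSCs, so their being above 0 does not count towards HSC identity. Fitted with replicate number as a blocking term, limma called 5 of these 11 different between the groups: Slamf1 (3.57 against 2.03 RPKM), Procr (7.58 against 4.24 RPKM) and Fgd5 (10.2 against 5.65 RPKM) were higher in calcium-high HSCs, and Cd34 (22.6 against 45.0 RPKM) and Flt3 (1.73 against 5.01 RPKM), which rise as progenitors form, were lower. Over all tested genes that fit called 0.433% lower and 0.484% higher. Without the block limma called 0 of the 11 markers and 0 of all genes. Calcium-low replicate 3 stood apart: its 9 neutrophil markers summed to 754 RPKM, against medians of 7.56 RPKM over the calcium-high and 9.88 RPKM over the calcium-low group. Its 8 erythroid markers summed to 146 RPKM, and those of calcium-high replicate 3 to 78.2 RPKM, against medians of 24.6 and 20.4 RPKM. Results that rest on replicate 3 are given with and without it.

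In resting cells NF-kB dimers are held in the cytoplasm by IkB proteins. A signal from a cytokine or pattern-recognition receptor activates the IkB kinase complex, which marks IkB for destruction, and the freed dimers enter the nucleus. Among the first genes they switch on are those for IkBα (Nfkbia) and the ubiquitin-editing enzyme A20 (Tnfaip3), which end the response. Nfkb1 and Nfkb2 encode the precursors p105 and p100, which are cut into the subunits p50 and p52 and, uncut, act as IkB proteins themselves. In HSCs the pathway is known for its part in survival, self-renewal and the response to inflammatory signals.

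The DNA sites that NF-kB recognises are short. The 10-base kappaB consensus, searched on both strands, was found in the 250 bases upstream of a RefSeq start (build GRCm38.p6) in 5 of the 8 members present in the promoter table, namely Rel, Nfkb2, Nfkbia, Nfkbie and Tnfaip3. Of all 27018 genes in that table, 4.46% had such a match. Rela, Nfkbib and Birc3 had none in this window. The matches are descriptions of these letters and not evidence of binding. They are shown here because they mark which members carry the motif close to their start, for comparison with the expression values that follow. In the upstream windows of Rel (chr11:23770970-23771219, minus strand) and Nfkbia (chr12:55492648-55492897, minus strand), capitals mark the matches, which lie 92 to 82 and 29 to 20 bases upstream. Overlapping matches were merged into 1 run.
Rel upstream window: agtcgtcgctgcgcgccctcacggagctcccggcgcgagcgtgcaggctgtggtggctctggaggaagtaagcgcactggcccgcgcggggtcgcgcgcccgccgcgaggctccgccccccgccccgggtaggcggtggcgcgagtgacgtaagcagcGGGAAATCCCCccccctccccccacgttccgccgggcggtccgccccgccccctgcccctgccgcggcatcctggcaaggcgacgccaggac
Nfkbia upstream window: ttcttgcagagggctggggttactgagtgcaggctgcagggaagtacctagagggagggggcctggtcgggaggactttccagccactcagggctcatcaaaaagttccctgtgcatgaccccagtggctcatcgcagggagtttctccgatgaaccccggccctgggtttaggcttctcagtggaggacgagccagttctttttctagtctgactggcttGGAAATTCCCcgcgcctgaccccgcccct

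For the other members with a match, 30-base windows around matches at the first RefSeq start are shown, again with the match in capitals. Tnfaip3 had matches 125 to 116 and 12 to 3 bases upstream of its first RefSeq start, at chr10:19015516-19015545 and chr10:19015403-19015432 (minus strand). Nfkb2 had them 39 to 29 and 11 to 2 bases upstream of its first start, at chr19:46304689-46304718 and chr19:46304716-46304745 (plus strand). Measured against the GENCODE models, all 250 bases before this Nfkb2 start and 110 of the 250 before this Tnfaip3 start lie in exons of the gene itself, since those models begin earlier. At its other RefSeq starts Nfkb2 had matches 236 to 227 and 225 to 216 bases upstream, which are not shown. That of Nfkbie lay 106 to 97 bases upstream, at chr17:45555584-45555613 (plus strand).
Tnfaip3 distal: gactcacgcgGGGACACCCCggggcgggac
Tnfaip3 proximal: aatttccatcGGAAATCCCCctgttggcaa
Nfkb2 distal: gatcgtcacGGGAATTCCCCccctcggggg
Nfkb2 proximal: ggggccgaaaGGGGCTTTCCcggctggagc
Nfkbie: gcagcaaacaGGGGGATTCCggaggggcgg

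The 10 transcripts covered a wide range of levels. Over all 14 libraries Nfkb1 averaged 14.4 ± 1.45 RPKM (SD), Rela 14.3 ± 3.1 RPKM and Nfkbia 12.3 ± 5.84 RPKM. These 3 could not be ranked, since Nfkb1 lay above Rela in 8 of 14 libraries and Rela above Nfkbia in 9 of 14. Nfkbia lay above Tnfaip3 (5.94 ± 2.95 RPKM) in all 14. Next came Nfkb2 (4.17 ± 0.726 RPKM), Birc3 (3.93 ± 0.715 RPKM) and Rel (3.52 ± 1.19 RPKM). Each of the steps from Tnfaip3 to Nfkb2, to Birc3 and to Rel held in 9 of 14 libraries, so this group was not ordered beyond its spread either. Nfkbie (2.44 ± 0.713 RPKM), Nfkbib (1.76 ± 0.684 RPKM) and Relb (1.19 ± 0.456 RPKM) were the lowest. Relb lay at the 4.17th percentile of tested genes and Nfkb1 at the 89.7th.

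Rel and Tnfaip3 were the members lower in calcium-high HSCs in every pair, and over all 14 libraries they passed limma on log2(RPKM + 1) if replicate number was a blocking term but not without it. Both were lower in calcium-high HSCs in 7 of 7 pairs of libraries with the same number, which 3.02% of all tested genes were, while no member was higher in all 7 (2.49% of tested genes). Rel encodes c-Rel, the subunit of lymphoid and activated blood cells, and Tnfaip3 encodes A20, so 1 subunit and 1 inhibitor differed in the same direction. The other 4 subunits and 4 inhibitors did not pass the test in either direction, with or without the block, with fitted differences from -0.15 for Nfkbie to 0.06 for Birc3 in log2(RPKM + 1). No member had calcium-high and calcium-low values that did not overlap at all, and 0.141% of tested genes did.

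Differences in log2(RPKM + 1) were tested with limma, and p-values were adjusted by Benjamini-Hochberg over all 9921 genes, with a threshold of 0.05. Without the replicate number as a block it called 0 members and 0 genes in either direction (0%), although 669 genes had an unadjusted p below 0.05. With that block it called 2 members lower, Rel and Tnfaip3, and 0 higher. The same fit called 43 of all genes lower (0.433%) and 48 higher (0.484%). When median-of-ratios scaling was added to the block, which moves the split of all calls to 214 higher and 72 lower (0.727% lower), the 2 members called lower were again Rel and Tnfaip3. The 2 genes had been seen as lower in earlier results of these data, so their calls here are a description of known values.

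Rel (chromosome 11, 23736847 to 23770970, minus strand in the GRCm38 annotation) ran from 1.98 to 4.23 RPKM in calcium-high libraries, with a median of 2.46. In calcium-low libraries it ran from 3.29 to 5.32 RPKM, with a median of 4.73. The groups overlapped only through calcium-high replicate 3, the highest of its group, and the other 6 calcium-high libraries lay below every calcium-low library. These values rested on 73 to 465 reads per library. The group means were 2.60 ± 0.763 and 4.44 ± 0.716 RPKM (SD, n = 7 each). The fitted difference was -0.61 ± 0.129 log2(RPKM + 1) (SE), with a limma adjusted p of 0.116 without the block and 0.0337 with it. The calcium-high to calcium-low ratio of RPKM was 0.41 in pair 6, 0.52 to 0.60 in pairs 1, 2, 4, 5 and 7, and 0.89 in pair 3.

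Rel was also a smaller part of the subunit transcripts in most calcium-high libraries. It made up 5.35% to 7.39% of the summed RPKM of the 5 subunits in calcium-high libraries other than replicate 3, which was at 13.9%. In the calcium-low libraries it made up 9.30% to 13.8%. Such a share does not depend on how libraries are scaled. The summed RPKM itself had medians of 40.1 in calcium-high and 40.4 in calcium-low libraries, and its ranges overlapped (26.8 to 42.0 and 34.1 to 42.2). Both medians came from replicates 4 to 7, which lay at 40.1 to 42.2, against 26.8 to 39.3 in replicates 1 to 3. The sum was lower in the calcium-high library in each of pairs 1 to 3, while pairs 4 to 7 went both ways.

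**Figure D1:**
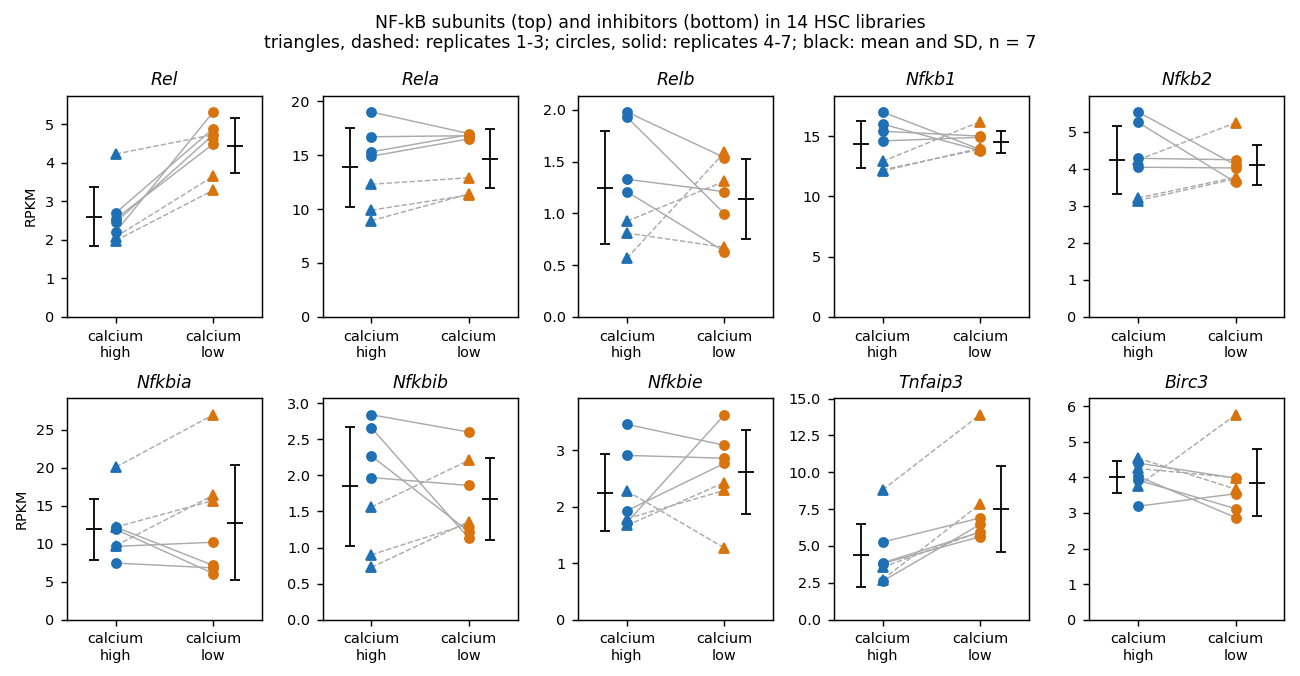
RPKM of the 5 subunits (top row) and 5 inhibitors (bottom row) in each of the 14 libraries, on axes that start at 0. Lines join libraries with the same replicate number (triangles and dashed lines for replicates 1 to 3, circles and solid lines for replicates 4 to 7), and black bars give the mean and SD of 7 libraries. All 7 lines rise from calcium-high to calcium-low for Rel and for Tnfaip3, while for the other genes some rise and some fall.

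Tnfaip3 (chromosome 10, 19000910 to 19015657, minus strand) ran from 2.61 to 8.80 RPKM in calcium-high libraries, with a median of 3.81. In calcium-low libraries it ran from 5.63 to 13.9 RPKM, with a median of 6.46. Replicate 3 was the highest library in each group; the other 6 calcium-high libraries lay below every calcium-low library. The counts behind these values were 187 to 1537 reads. The means were 4.37 ± 2.14 and 7.52 ± 2.91 RPKM (SD, n = 7 each), with a fitted difference of -0.69 ± 0.216 log2(RPKM + 1) (SE). The limma adjusted p was 0.396 without the block and 0.0337 with it. The ratio of RPKM within a pair was 0.35 in pair 2, 0.40 in pair 7 and 0.60 to 0.76 in the other 5.

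Within the inhibitor class the pattern was like that of Rel among the subunits. Tnfaip3 made up 14.4% to 23.6% of the summed RPKM of the 5 inhibitors in calcium-high libraries, with a median of 15.6%. In calcium-low libraries it made up 20.4% to 30.8%, with a median of 28.2%. Calcium-high replicates 3 and 5 reached into the calcium-low range, at 23.6% and 21.8%.

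**Figure D2:**
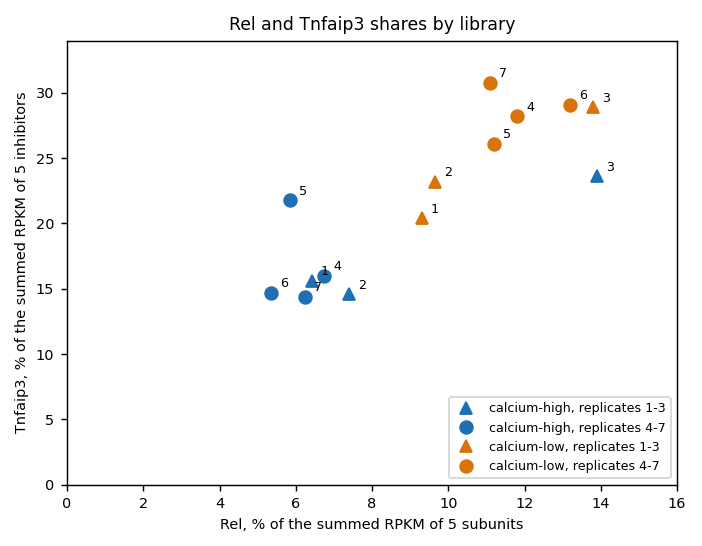
Share of Rel in the summed RPKM of the 5 subunits (horizontal axis, percent) against the share of Tnfaip3 in the summed RPKM of the 5 inhibitors (vertical axis, percent), 1 point for each library with its replicate number. Calcium-high libraries other than replicate 3 lie to the left of all calcium-low libraries, with Rel at 5.35% to 7.39% against 9.30% to 13.8%, and calcium-high replicate 3 lies beside calcium-low replicate 3 at 13.9%.

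Whether both genes passed depended on replicate 3. Without both libraries of replicate 3, limma without the block called Rel (adjusted p = 0.00537, log2 difference -0.69) and Tnfaip3 (adjusted p = 0.0138, log2 difference -0.70) lower, 2 of 10 members, against 42 of 9879 genes (0.425%). This fit was added after the values were seen. For both genes the groups overlap only through calcium-high replicate 3, so removing it favours a lower p, and these calls are a description. Leaving out calcium-high replicate 3 alone also gave both calls without the block, with adjusted p of 0.00337 and 0.0354. Leaving out calcium-low replicate 3 alone, the library with the neutrophil transcripts, gave neither, with adjusted p of 0.103 and 0.421 and log2 differences of -0.59 and -0.55, the latter smaller than the -0.69 over all libraries. With the block, leaving out any pair other than 3 raised the adjusted p of Rel to 0.0583 to 0.153. Tnfaip3 then had 0.0583 to 0.153 too, except 0.0478 without pair 5.

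Replicates 1 to 3 and 4 to 7 form library sets of different depth, which the labels do not call batches. In replicates 4 to 7 alone limma called the same 2 members lower, Rel with adjusted p of 0.000681 and Tnfaip3 with 0.0308, against 177 genes in all (1.78%). In replicates 1 to 3 alone it called 0 genes, with 1151 at an unadjusted p below 0.05; the adjusted p of Rel and Tnfaip3 was 0.434 and 0.421, and both were lower in 3 of 3 pairs. The mean pair difference of Rel was -0.42 log2(RPKM + 1) in replicates 1 to 3 and -0.75 in replicates 4 to 7. For Tnfaip3 these were -0.82 and -0.59. The test of the difference between the sets gave adjusted p of 0.32 and 0.699 by limma without the block (0 genes called, 0%) and 0.156 and 0.419 with it (165 genes called, 1.66%). On whole reads recovered from the RPKM steps, limma-voom with library quality weights and no block called Rel (adjusted p = 0.000174) and Tnfaip3 (adjusted p = 0.00243) lower, among 256 genes (2.58%). The weights were lowest for replicate 3, at 0.19 in calcium-low and 0.342 in calcium-high, against 0.815 to 2.61 in replicates 4 to 7. This fit therefore leaned on replicates 4 to 7 and counted replicate 3 little.

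The other subunits did not pass. Rela encodes p65, the main activating subunit (chromosome 19, 5637483 to 5648130). It ran from 8.93 to 19.0 RPKM in calcium-high libraries (median 14.9) and from 11.3 to 17.0 RPKM in calcium-low libraries (median 16.5). Its pair differences were small, lower in 6 of 7 pairs, and the 95% interval of the fitted difference was -0.44 to 0.24 without the block and -0.28 to 0.08 with it (limma adjusted p = 0.993 and 0.659). Its larger contrast was between library sets: all 6 libraries of replicates 1 to 3 lay at 8.93 to 12.9 RPKM and all 8 of replicates 4 to 7 at 14.9 to 19.0 RPKM, without overlap.

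Nfkb1 (chromosome 3, 135584655 to 135691547) was the steadiest member. It ran from 12.1 to 17.0 RPKM in calcium-high libraries (median 14.6) and from 13.8 to 16.2 RPKM in calcium-low libraries (median 14), with 790 to 2735 reads. The fitted difference was -0.03 log2(RPKM + 1), with a 95% interval of -0.24 to 0.18 (limma adjusted p = 0.998 without the block, 0.925 with it).

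Nfkb2 (chromosome 19, 46304320 to 46312385) and Relb (chromosome 7, 19606217 to 19629438) form the dimer of the noncanonical branch of the pathway. Nfkb2 ran from 3.14 to 5.53 RPKM in calcium-high libraries (median 4.24) and from 3.63 to 5.24 RPKM in calcium-low libraries (median 4.02). Relb, on 23 to 193 reads, ran from 0.567 to 1.98 RPKM and from 0.632 to 1.59 RPKM, with a median of 1.21 RPKM in both groups. The groups overlapped over most of their range for both genes. The 95% intervals of their differences were -0.22 to 0.27 for Nfkb2 and -0.28 to 0.40 for Relb (limma adjusted p = 0.998 each without the block, 0.943 and 0.901 with it). Antisense genes share bases with the Nfkb2 exons, among them Psd over 6.52% of them, and the labels do not say whether counting used strand.

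**Figure D3:**
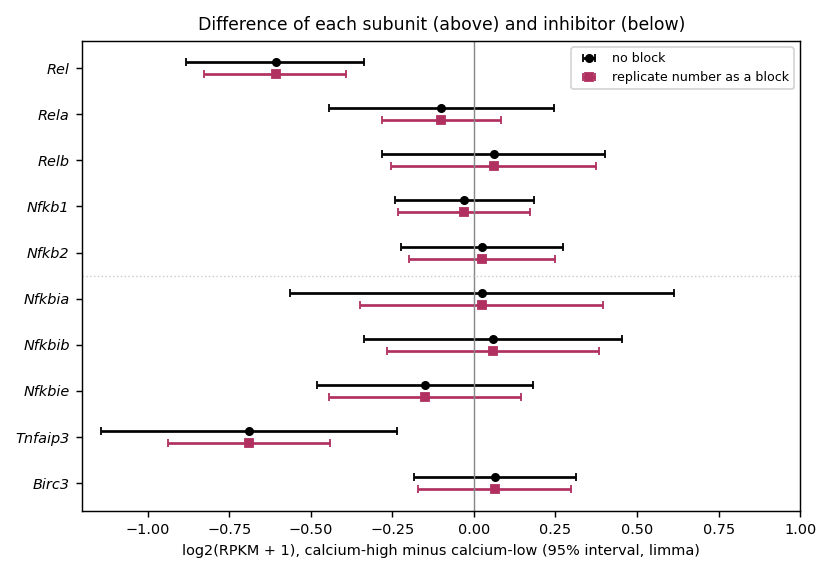
Fitted difference of each gene in log2(RPKM + 1), calcium-high minus calcium-low, with its 95% interval from limma without the block (black circles) and with the replicate number as a block (red squares). Intervals of Rel and Tnfaip3 lie below 0 in both fits and those of the other 8 genes include 0; the adjusted p of Rel and Tnfaip3 was 0.0337 each with the block and 0.116 and 0.396 without it.

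Of the IkB inhibitors, Nfkbia (chromosome 12, 55489410 to 55492647), which encodes IkBα, varied most between libraries. It ran from 7.46 to 20.1 RPKM in calcium-high libraries (median 11.9) and from 6.08 to 27.0 RPKM in calcium-low libraries (median 10.2). Both highest values were those of replicate 3. The difference was 0.02 log2(RPKM + 1) with a 95% interval of -0.57 to 0.61 without the block and -0.35 to 0.40 with it (limma adjusted p = 0.999 and 0.971). Within pairs, Nfkbia was lower in calcium-high libraries in pairs 1, 2 and 3 (ratios of 0.59 to 0.78) and in pair 5 (0.95), and higher in pairs 4, 6 and 7 (1.09 to 1.96).

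Nfkbib (chromosome 7, 28758251 to 28767512), which encodes IkBβ, ran from 0.725 to 2.84 RPKM in calcium-high libraries (median 1.97). In calcium-low libraries it ran from 1.13 to 2.60 RPKM (median 1.36). It was lower in calcium-high libraries in pairs 1 to 3 and higher in pairs 4 to 7. The reads numbered 22 to 199, and the antisense gene Ccer2, at a mean of 0.00854 RPKM, shares 14.5% of the exon bases. Sirt2, antisense too and at a mean of 4.30 RPKM against 1.76 RPKM for Nfkbib, shares 1.94% of them. Nfkbie (chromosome 17, 45555703 to 45563169), which encodes IkBε, ran from 1.67 to 3.46 RPKM (median 1.93) against 1.27 to 3.63 RPKM (median 2.77). It was lower in 4 of 7 pairs, and its interval was -0.48 to 0.18 log2(RPKM + 1). The limma adjusted p was 0.998 for Nfkbib and 0.991 for Nfkbie without the block, and 0.907 and 0.677 with it.

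Birc3 (chromosome 9, 7848699 to 7873186) encodes cIAP2, a ubiquitin ligase that relays signals from the TNF receptor and restrains the noncanonical branch. It ran from 3.19 to 4.54 RPKM in calcium-high libraries (median 4.03) and from 2.87 to 5.76 RPKM in calcium-low libraries (median 3.67), where replicate 2 was the highest. The difference was 0.06 log2(RPKM + 1), with an interval of -0.18 to 0.31 (limma adjusted p = 0.995 without the block, 0.849 with it). So Tnfaip3 was the 1 inhibitor of 5 that passed with the block.

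Set against each other, the classes had overlapping levels in the calcium populations. The median log2 difference was -0.03 over the 5 subunits and 0.02 over the 5 inhibitors, against -0.03 over all tested genes. Of the subunits 3 were lower and of the inhibitors 2, while 57.8% of all tested genes were lower. The ratio of summed inhibitor to summed subunit RPKM ran from 0.443 to 1.23 in calcium-high libraries (median 0.633). In calcium-low libraries it ran from 0.480 to 1.40 (median 0.626). In both groups replicate 3 was highest, at 1.23 and 1.40. The ratio followed the library set: replicates 1 to 3 lay at 0.695 to 1.40 and replicates 4 to 7 at 0.443 to 0.633, without overlap. It was lower in the calcium-high library in each of pairs 1 to 3, while pairs 4 to 7 went both ways.

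The pairs gave a pattern that followed the replicate number more than the class. In pairs 1 to 3, 9, 10 and 7 of the 10 members were lower in the calcium-high library, and in pairs 4 to 7 it was 4, 5, 3 and 4. All genes shifted the same way: the share of tested genes that were lower was 76.6%, 70% and 77.2% in pairs 1 to 3 and 26.7% to 45.5% in pairs 4 to 7. The median difference of all tested genes was -0.25, -0.11 and -0.22 log2(RPKM + 1) in pairs 1 to 3 and 0.02 to 0.16 in pairs 4 to 7. Rel was below that median in 6 of 7 pairs, pair 3 being the exception at -0.13, and Tnfaip3 in all 7. Of the other 8 members, Relb, Nfkb1, Nfkb2, Nfkbia, Nfkbib and Birc3 had a negative mean pair difference in replicates 1 to 3 and a positive one in replicates 4 to 7, as all genes did in the median (-0.20 and 0.11). Rela was negative in both (-0.19 and -0.04), and so was Nfkbie (-0.02 and -0.25), which went against that shift. The part of the library-wide shift in these values was not tested.

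**Figure D4:**
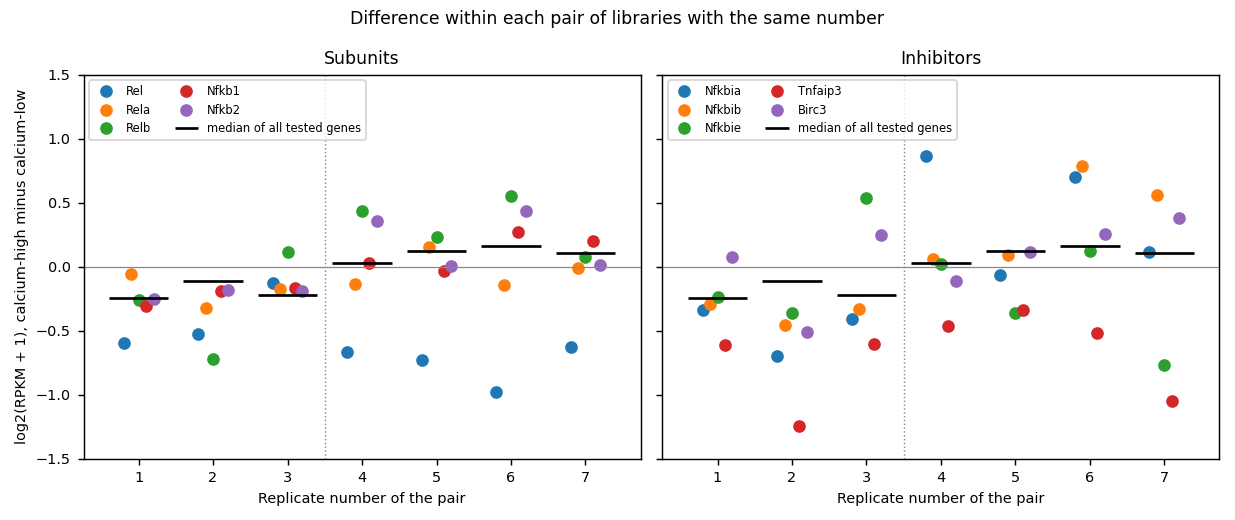
Difference in log2(RPKM + 1), calcium-high minus calcium-low, within each pair of libraries with the same replicate number (horizontal axis), for the 5 subunits (left) and 5 inhibitors (right); black bars mark the median of all 9921 tested genes in that pair, and the dotted line divides replicates 1 to 3 from 4 to 7. Rel is below 0 in every pair and farthest in pair 6 (-0.98), Tnfaip3 is below 0 in every pair and farthest in pair 2 (-1.25), and the other genes lie on both sides of 0.

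The rest of the pathway was examined in lists of genes by their role. For comparison, 57.8% of all tested genes were lower, and limma with the block called 0.433% of them lower and 0.484% higher. Of 25 receptors and adaptors, 22 were tested; without the block limma called 0, and with it 1 lower and 0 higher. That gene was Il1r1, the interleukin 1 receptor, whose mean was 0.703 ± 0.209 RPKM where calcium was high and 1.56 ± 0.318 RPKM where it was low (SD, 7 libraries each). Its groups did not overlap, as in 0.141% of tested genes. Limma gave Il1r1 an adjusted p of 0.0408 with the block and 0.099 without. Its mean over all libraries was 1.13 RPKM, and only its calcium-low mean lay above the 1 RPKM needed for testing. Tnfrsf1b, a receptor of tumour necrosis factor, stood the other way at 8.04 ± 0.867 against 6.20 ± 0.885 RPKM, and Traf1, an adaptor of that receptor family, at 1.29 ± 0.431 against 0.780 ± 0.322 RPKM. Neither passed (limma adjusted p = 0.121 and 0.207 with the block). Traf1, at a mean of 1.03 RPKM over all libraries, reached the level for testing only through its calcium-high values. The median log2 difference of the list was 0.01, with 11 genes lower and 11 higher.

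Of the 11 kinases of the pathway all were tested and 0 were called with or without the block, with 6 lower and a median log2 difference of -0.04. The smallest p-values were those of Ikbke, a kinase related to the IkB kinases (7.07 ± 1.57 against 5.55 ± 1.32 RPKM), Map3k8 (1.55 ± 0.336 against 1.23 ± 0.442 RPKM) and Chuk, which encodes IKKα (2.40 ± 0.791 against 3.18 ± 1.73 RPKM). Their limma adjusted p was 0.192, 0.394 and 0.441 with the block. Among 13 ubiquitin editors and binding partners of A20, 0 were called, with 6 lower. Otulin, which removes linear ubiquitin chains, was at 3.70 ± 0.401 against 4.88 ± 0.818 RPKM and lower in 7 of 7 pairs. Tnip3, a binding partner of A20, was at 2.31 ± 0.548 against 1.55 ± 0.539 RPKM and higher in 7 of 7 pairs. Their limma adjusted p with the block was 0.206 and 0.0823, and that of Tnip2 (5.32 ± 0.530 against 4.75 ± 0.553 RPKM) was 0.562.

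The list of atypical IkB proteins and factors that end nuclear NF-kB activity had 8 of 10 genes tested and 0 called. Of the 8, 7 were lower, with a median log2 difference of -0.11, against 57.8% of all tested genes lower and a median of -0.03. Commd1 was at 2.81 ± 0.432 against 3.24 ± 0.681 RPKM, Bcl3 at 1.99 ± 0.486 against 2.38 ± 0.822 RPKM and Nfkbiz at 8.52 ± 2.22 against 9.16 ± 0.721 RPKM (limma adjusted p with the block 0.591, 0.593 and 0.696).

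Of 34 target genes of NF-kB, 16 reached the level needed for testing. With the block limma called 1 lower, the chemokine gene Ccl4 (5.58 ± 1.49 against 19.5 ± 10.8 RPKM, limma adjusted p 0.0337), and 0 higher; without it 0 were called. Ccl3, a chemokine of the same family, averaged 1.03 ± 0.907 against 9.57 ± 8.22 RPKM, and Ier3_1, a label with a copy suffix for an early response gene, 8.24 ± 1.71 against 11.8 ± 1.35 RPKM. Neither passed limma with the block (adjusted p = 0.061 and 0.0772). The median log2 difference of the 16 targets was -0.04, with 10 lower and 6 higher, where 57.8% of all tested genes were lower. Targets such as Icam1 (8.28 against 7.69 RPKM), Sod2 (6.02 against 6.05 RPKM) and Irf1 (9.95 against 10.1 RPKM), named after their values were seen, lay close together in both groups.

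**Figure D5:**
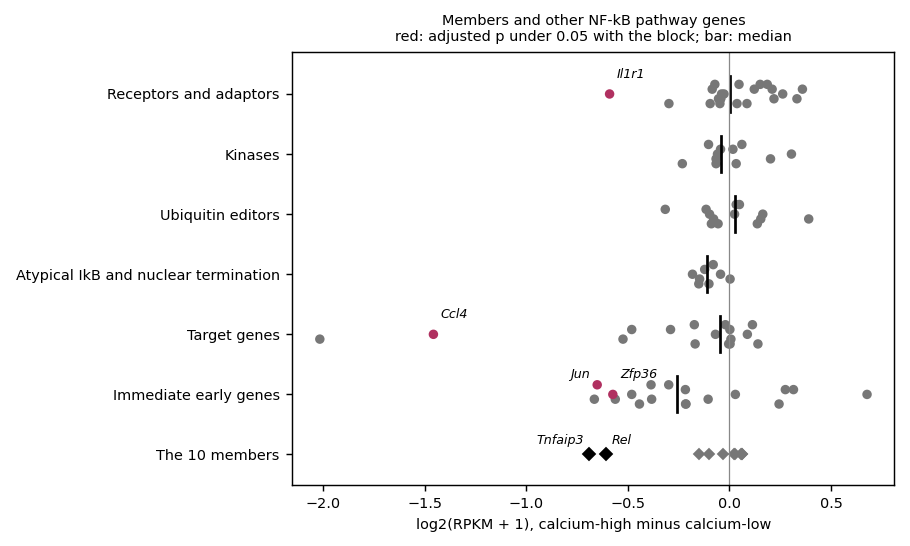
Fitted difference in log2(RPKM + 1), calcium-high minus calcium-low, for each tested gene of 6 lists (points, with the list median as a bar) and for the 10 NF-kB subunits and inhibitors (diamonds, Rel and Tnfaip3 in black). Red points passed limma with the replicate block (Il1r1, Ccl4, Jun and Zfp36), and the list medians lie from -0.26 for the immediate early genes to 0.03 for the ubiquitin editors.

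Transcripts outside the pathway lists above also differed between the groups, in both directions. Immediate early genes are induced quickly when cells are stimulated, handling included. Of 20 listed, 18 were tested and 13 were lower, with a median log2 difference of -0.26. Of all tested genes 57.8% were lower, with a median of -0.03. With the block limma called 0.433% of all tested genes lower. In this list it called 2 lower, Jun (49.5 ± 11.5 against 76.5 ± 3.59 RPKM) and Zfp36 (42.8 ± 12.4 against 66.2 ± 24.1 RPKM), each with an adjusted p of 0.0364, and 0 higher. Klf2 averaged 6.50 ± 2.14 against 3.71 ± 1.46 RPKM and did not pass (limma adjusted p of 0.121 in that fit). Ier3_1, in this list too, is described above. The mean of the list ran from 3.95 to 4.67 log2(RPKM + 1) in calcium-high and from 4.09 to 4.74 in calcium-low libraries. In each group its lowest library was replicate 3, where Tnfaip3 was highest. Whether the list and Tnfaip3 moved together across libraries was not tested. Of 6 T and NK cell markers, 2 were above 0 in any calcium-high library and 3 in any calcium-low library, with Cd3e and Cd3g at 0 in all 14, and they summed to 3.46 to 18.1 RPKM against 11.6 to 33.0 RPKM. Nkg7, a granule gene of NK and T cells, made up most of that sum, at 9.74 against 19.7 RPKM, named after its values were seen. The 7 monocyte and macrophage markers summed to 44.5 to 159 RPKM against 57.7 to 80.8 RPKM. Of the HSC list, Cd34 and Flt3, listed as low in HSCs, were lower and Slamf1, Procr and Fgd5 higher, with the values given above. In libraries made from 100 cells, more cells of a kind and more RNA per cell cannot be told apart, and the part of these transcripts in the differences of Rel and Tnfaip3 was not tested.

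Genes whose pattern was most like that of a member were ranked by Pearson's r over the 14 libraries, after the mean of each group and library set was removed, so the group difference played no part. For Rel these were Stk17b, an apoptosis-related kinase (r = 0.957), Slc22a3, an organic cation transporter (r = 0.949), and Dnajc6, auxilin (r = 0.947). The fitted log2 differences of these 3 were -0.66, -0.55 and -0.67. For Tnfaip3 they were Vps37b, Necap2 and Slc7a5, an amino acid transporter (r = 0.959, 0.929 and 0.921), with log2 differences of -0.20, 0.04 and -0.34. For Nfkbia they were Nrarp, Galk1 and Cox11 (r = 0.933, 0.891 and 0.882). The r values rest in part on replicate 3. Over the 12 libraries without it, centred again, they were 0.544 to 0.701 for the genes nearest Rel, 0.645 to 0.840 for those nearest Tnfaip3 and 0.703 to 0.863 for those nearest Nfkbia. Among the members, Tnfaip3 and Nfkbia deviated together at r = 0.842 with replicate 3 and 0.555 without it. Rel had r = 0.779 with Tnfaip3 and 0.667 with Nfkbia over all libraries but -0.292 and -0.156 without replicate 3, so these rest on that replicate. Nfkb1 and Nfkb2 had r = 0.696 and, without it, 0.665. These are descriptions over libraries that also share depth.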

How the data were processed

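The deposited values are RPKM that the authors computed, in one file per library; the unit was read from the values, as the file headers name none. The submitters' processing notes name GRCm38, mm10 and edgeR with no role or version; aligner, counter and annotation are not given in the sources used here. Of 48737 labels per file, 23 had become serial numbers in the files of replicates 4 to 7 and were left out. RPKM values were whole multiples of a step per gene and library: all 9848 genes above 0 in every library with a mean of 1 RPKM or more gave whole reads to within 0.02 reads, against 0 of 300 genes with jittered values. The reads gave the depths and the limma-voom alternative.

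Differences were fitted with limma 3.58.1 (R 4.3.3), using its trend option and no covariates, on log2(RPKM + 1), which shrinks the fold changes of low genes. The 9921 genes that averaged at least 1 RPKM entered. Python 3.11.15, numpy 2.4.6, pandas 2.3.3 and matplotlib 3.10.9 were used. The replicate number is shared across groups in the titles; deviations of same-numbered libraries from their group means correlated at 0.384 to 0.715 in all 7 pairs, above the limit of 0.1 set for treating them as pairs, though at -0.0647 to 0.552 once the library set was removed too, so values with the block are printed where a call changes. Alternatives were the block, a term for the library set, either set by itself, other pseudocounts, filters and scalings, the number of genes above 0 as a covariate, limma-voom, and leaving out libraries or pairs.

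The members and lists were chosen with earlier results of these data known. In each list the genes named are those called with or without the block and the 3 with the smallest p without it. For a gene with copy labels the label with the highest mean was used. Coordinates come from GENCODE M21 (GRCm38), promoter sequences from RefSeq (GRCm38.p6); Relb and Nfkb1 were not in that table. Proteins were not analysed here.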

Additional observations from a re-analysis of the deposited data

Results flagged for a closer look

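Library 3 of each group stood apart for several genes. By Dixon's test at the 95% level, 8 of 56 groups of 7 libraries held such a value. The rate of about 1 in 20 by chance holds for independent groups. These groups share libraries, and some genes were named for a small p, so the count was not set against chance. In calcium-high replicate 3, Rel was at 4.23 RPKM (the other 6 libraries at 1.98 to 2.70), Nfkbia at 20.1 RPKM (7.46 to 12.2) and Tnfaip3 at 8.80 RPKM (2.61 to 5.26). In calcium-low replicate 3, Tnfaip3 was at 13.9 RPKM (5.63 to 7.84) and the kinase gene Ikbke at 2.88 RPKM (5.32 to 6.86). Nfkb2 was at 5.24 RPKM in calcium-low replicate 1 (3.63 to 4.24). In calcium-low replicate 2, Birc3 was at 5.76 RPKM (2.87 to 3.99) and Tnfrsf1b at 8.04 RPKM (5.25 to 6.24).

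The library sets gave different calcium contrasts for some of the named genes. All tested genes shifted too, with a median mean pair difference of -0.20 log2(RPKM + 1) in replicates 1 to 3 and 0.11 in replicates 4 to 7. Other listed genes, such as Tnfrsf1a, Tab2 and Usp4, also had every pair lower in replicates 1 to 3 and higher in 4 to 7. The share of all genes that did so was not counted. Every pair moved one way in replicates 1 to 3 and the other way in replicates 4 to 7 for Nfkb2 (mean -0.21 and 0.20 log2(RPKM + 1)), Nfkbib (-0.36 and 0.37), Commd1 (-0.41 and 0.05) and Nfkbiz (0.19 and -0.36). For Nfkb2 and Nfkbib limma's test of that difference with the replicate block gave adjusted p of 0.0923 and 0.0591, and for Commd1 and Nfkbiz 0.0731 and 0.0576, so it did not pass. For Ccl3 and Ccl4 it passed with the block alone: the contrast in replicates 4 to 7 minus that in replicates 1 to 3 was -2.85 and -1.52 log2(RPKM + 1), with a limma adjusted p of 0.0416 each with the block and 0.105 each without it.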

How the results depend on the processing

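Rel and Tnfaip3 were lower in calcium-high libraries under every alternative run for them (37 and 38, Rel at -0.98 to -0.32 log2(RPKM + 1) and Tnfaip3 at -0.89 to -0.42), but whether they passed depended on the fit. The number of members called lower, 0 without the block, was 2 with the replicate block, on RPKM as deposited or after median-of-ratios scaling, in replicates 4 to 7 alone with or without the block, with limma-voom with or without the block, and without replicate 3 of both groups. It was 1 (Rel) with the library set as a term and 0 with the block and no filter. Leaving out a library or, with the replicate block, a pair gave 0 to 2. The fits without replicate 3 of both groups and with the block and no filter were added after the values were seen. So were those with the block in replicates 4 to 7 alone and by limma-voom. Calls over all genes, 0 without the block, were 48 higher and 43 lower with the replicate block and 214 and 72 when median-of-ratios scaling was added to it. The library set as a term gave 22 and 29, replicates 4 to 7 alone 631 and 177 (502 and 154 with the replicate block), limma-voom 444 and 256 (547 and 292 with the replicate block), and leaving out replicate 3 of both groups 80 and 42. No filter and a mean of 5 RPKM each called 1 higher, median-of-ratios scaling 4 and upper-quartile scaling 3. Leaving out a library gave 0 to 69 higher and 0 to 32 lower, and leaving out a pair with the replicate block 0 to 173 higher and 0 to 140 lower (10 lower without pair 5). The median over all genes was -0.03 as deposited and 0.02 with upper-quartile scaling.

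Of the 8 members not called, Rela and Nfkbie kept their sign in every alternative run for them (38 and 37), and the other 6 changed sign in at least 1, as did Commd1 and Nfkbiz. In replicates 1 to 3 alone Relb was at -0.29, Nfkb2 at -0.21, Nfkbia at -0.48, Nfkbib at -0.36, Birc3 at -0.06 and Nfkbiz at 0.19. With genes above 0 as a covariate Nfkb2 was at -0.03, Nfkbia at -0.28, Nfkbib at -0.14 and Nfkbiz at 0.004. Nfkb1 was at 0.02 with upper-quartile scaling, 0.12 in replicates 4 to 7 with or without the replicate block, and 0.046 and 0.017 with limma-voom without and with the block; Commd1 was at 0.052 in replicates 4 to 7 with or without it. Nfkbia was at -0.002 with a pseudocount of 5. Leaving out a library gave -0.014 to 0.141 for Relb, -0.070 to 0.006 for Nfkb1, -0.030 to 0.080 for Nfkb2, -0.108 to 0.223 for Nfkbia and -0.023 to 0.169 for Nfkbib. Leaving out a pair with the replicate block gave -0.022 to 0.190, -0.080 to 0.017, -0.042 to 0.072, -0.116 to 0.144 and -0.062 to 0.144 (Nfkb2 at -0.029 without pair 4, Nfkbia at -0.089 without pair 6, Nfkbib at -0.025 without pair 7). The cause was not tested. Each member had a single label, so summing copies had no case. The samples with the same number correlated best with their own number in 5 of 14 libraries. Relb and Nfkbib rest on as few as 23 and 22 reads, which limits their precision.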
